A study of Mus musculus with 6 samples.

Results

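The genes of interleukin-6 (IL-6) family signalling and the small proline-rich gene Sprr1a were followed through sorted mouse pancreatic acinar cells with and without cerulein. They are 10 genes of the 21949 in the table: the ligands Il6, Il11 and Lif, the receptors Il6ra, Il6st, Osmr and Lifr, the transcription factor Stat3, its feedback inhibitor Socs3, and Sprr1a. They were chosen by symbol with earlier results of this same comparison known, so their levels and differences are given as a description. No p-value between the groups is given for any member, and the intervals for Lif and Il6 cover counting error only. The series compared acinar cells of adult CD1-enriched mice in 2 groups of 3 libraries, control and cerulein, all of the genotype ElastaseCreER/ROSA26YFP. In that genotype the elastase promoter, active in acinar cells, drives an inducible Cre, and the ROSA26 locus carries a yellow fluorescent reporter. Treated mice received cerulein, an analogue of cholecystokinin that causes pancreatitis, in 7 injections per day every other day during 3 days, and then recovered for 1 day. Acinar cells were isolated from digested pancreas by fluorescence-activated sorting, with a gate that the labels do not describe, and their total RNA was depleted of ribosomal RNA and sequenced. The labels do not say that the libraries came from separate mice, so p-values measure the spread between these libraries, which may be technical.

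IL-6 family cytokines signal through the shared receptor chain gp130, the product of Il6st. IL-6 first binds its own receptor, encoded by Il6ra, IL-11 its own alpha receptor, while leukaemia inhibitory factor (Lif) and oncostatin M bring gp130 together with the chains encoded by Lifr and Osmr. Janus kinases bound to the receptors then phosphorylate STAT3, which enters the nucleus, and SOCS3, a product of STAT3 activity, binds gp130 and damps the signal. In the mouse pancreas, IL-6 and STAT3 are known for their part in pancreatitis and in acinar-to-ductal metaplasia. Sprr1a belongs to the small proline-rich proteins of the cornified envelope of skin, is induced by gp130 cytokines in mouse and rat heart muscle cells, and is also known from regenerating neurons.

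The deposited values are FPKM, fragments divided by transcript length and library total. Many values of 1 or more had lost their decimal mark, and these were restored where possible from the whole number of fragments behind each FPKM. Of the 10 members, 8 could be restored in all 6 libraries, Socs3 in 4 libraries and Lifr in none. At 2000 bases of transcript, 1 FPKM meant 6.45 to 8.09 fragments in control and 23.1 to 34.0 fragments in cerulein libraries, so that low levels were measured less finely in the controls. The defining acinar markers, among them the carboxypeptidase Cpa1 and the transcription factor Ptf1a, were above 0 in every library, and all 7 restored acinar markers were lower in cerulein at an adjusted p under 0.05 by limma. Over the 18060 genes restored in all libraries, digestive enzymes took 87.7% to 88.0% of the FPKM in control and 69.2% to 76.5% in cerulein libraries. The FPKM of the same genes outside these enzymes summed to 80090 to 87520 in control and 44050 to 49390 in cerulein libraries. Genes that could not be restored are missing from both. Of 5275 genes restored and above a filter of 1 FPKM in at least 3 libraries, 642 (12.2%) passed, 355 higher and 287 lower in cerulein, and the median log2 difference was 0.09. That count was 1203 without control 1, 334 without control 2, 395 without cerulein 1, 169 without cerulein 2 and 151 without cerulein 3. In sorted bulk RNA, fewer cells of a type and less RNA per cell cannot be told apart.

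The upstream sequences of the 3 members with the largest log2 differences, Sprr1a, Lif and Il6, are shown because these genes were at or near 0 in the controls. Each is the 250 bases before the RefSeq start on build GRCm38.p6, the build of mm10, written 5′ to 3′ on the strand of the gene. Capitals mark matches to AP-1 (TGANTCA) and C/EBP (TTGCNNAA), and matches to STAT (TTCNNNGAA) were also searched, all on both strands.
Sprr1a, chr3:92485882-92486131, minus strand: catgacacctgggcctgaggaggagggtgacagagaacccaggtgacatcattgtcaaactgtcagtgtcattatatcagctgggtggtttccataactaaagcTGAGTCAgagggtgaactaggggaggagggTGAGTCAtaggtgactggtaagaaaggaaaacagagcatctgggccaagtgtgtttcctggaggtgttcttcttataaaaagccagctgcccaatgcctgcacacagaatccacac
Lif, chr11:4257318-4257567, plus strand: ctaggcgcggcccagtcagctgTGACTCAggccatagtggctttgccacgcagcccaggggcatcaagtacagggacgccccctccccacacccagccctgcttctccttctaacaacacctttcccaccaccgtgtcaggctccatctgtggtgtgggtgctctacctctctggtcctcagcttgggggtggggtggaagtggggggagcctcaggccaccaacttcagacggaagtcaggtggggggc
Il6, chr5:30012864-30013113, plus strand: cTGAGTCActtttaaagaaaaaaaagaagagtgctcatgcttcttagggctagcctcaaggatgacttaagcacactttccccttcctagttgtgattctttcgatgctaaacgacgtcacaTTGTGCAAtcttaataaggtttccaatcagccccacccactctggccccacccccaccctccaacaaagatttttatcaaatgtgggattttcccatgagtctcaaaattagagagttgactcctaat
The Sprr1a window held 2 AP-1 matches, the Lif window 1, and the Il6 window 1 AP-1 match with 1 C/EBP match further down. No match in these windows overlapped another. Over the 12 RefSeq windows of the 10 members, 4 members had an AP-1 match (these 3 and Il11), against 6.75% of 32851 windows of all genes. Members and windows are unlike units: Il11 and Lifr had 2 windows each, and Il11 had its match in only 1 of them. The only STAT match was TTCTTAGAA upstream of Socs3, against 7.02% of all windows, and the only C/EBP match was that of Il6, against 9.56%. A match describes letters only.

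Among the 8 restored members, Sprr1a had the highest level after cerulein, and it was listed at 0 in every control library. Sprr1a (chr3:92483952-92485895, minus strand) stood at 50.7, 54.3 and 66.3 FPKM in cerulein libraries 1, 2 and 3, from 404, 524 and 755 fragments. No fragment of it was counted in any control library, and the groups did not overlap. Against a floor of 3 fragments per library, which is 1.33 FPKM or less in the controls, the lowest cerulein library was at least 38.3-fold higher. The difference was 5.85 on log2(FPKM + 1). The decimal marks of these values were placed with the other libraries in view, and with every mark at its lowest place Sprr1a would still be at 5.07 FPKM or more in each cerulein library. All of its signal came from the single transcript listed, Sprr1a-201, which codes for 144 residues.

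The rest of the small proline-rich family, whose members resemble Sprr1a in sequence, stayed at or near 0. Of the 13 other Sprr genes in the table, all were listed at 0 in the control libraries and 10 in every library. The highest value of any was 0.482 FPKM, for Sprr2a2 in cerulein library 2. Sprr2a2 overlaps Sprr2a1 in the annotation, and fragments of near-identical copies may have been split between them. Of the 7 other cornified envelope genes, among them involucrin (Ivl), loricrin (Lor), transglutaminase 1 (Tgm1) and periplakin (Ppl), none passed the filter, and Lor and Cnfn were listed at 0 throughout. Ppl had the highest level among these, at 0.405 to 0.980 FPKM in control and 0.973 to 1.84 FPKM in cerulein libraries.

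The genes known beside Sprr1a in regenerating neurons gave no common direction. The transcription factor Atf3 stood at 41.5, 32.8 and 72.3 FPKM in controls 1, 2 and 3 and at 60.7, 47.0 and 52.9 FPKM in cerulein libraries 1, 2 and 3 (log2 difference 0.20 ± 0.34 SE, adjusted p = 0.752 by limma). Jun, an AP-1 subunit, had a log2 difference of -0.96 ± 0.35 (SE) and did not pass (adjusted p = 0.102 by limma). The growth cone gene Gap43 and the transcription factor Sox11 were listed at 0 in all controls and stayed at or under 0.102 FPKM in cerulein libraries. Klf6 could not be restored in any library, and Gal and Gadd45a could not be restored in all. Gadd45a stood at 0, 1.18 and 0.216 FPKM in controls 1, 2 and 3. In cerulein libraries 1, 2 and 3 it stood at 6.82 FPKM, 4.58 FPKM, and 5.689 FPKM or more. Gal ran the other way in part. Its lowest possible values were 4.083, 5.008 and 9.912 FPKM in controls 1, 2 and 3. In cerulein libraries 1, 2 and 3 it stood at 1.417 FPKM or more, 3.44 FPKM and 0.9375 FPKM.

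Across the 6 libraries, the tested genes whose centred log2 values lay closest to those of Sprr1a were Gm4744, the tight junction gene Cldn4, the tachykinin precursor Tac1, the antimicrobial lectin Reg3g and the iron-chelator carrier Lcn2. The mean absolute difference from Sprr1a was 0.32 log2 units for Gm4744, 0.50 for Cldn4, 0.74 for Tac1, 0.82 for Reg3g and 0.92 for Lcn2. Gm4744 overlaps Gm29588 in the annotation, so its fragments may belong to either. Tac1 was the only 1 of these 5 that, like Sprr1a, was listed at 0 in all 3 controls, with 19.0, 15.2 and 26.0 FPKM in cerulein libraries 1, 2 and 3. Cldn4 stood at 3.79, 0.452 and 1.65 FPKM in controls 1, 2 and 3 and at 87.8, 104 and 102 FPKM in cerulein libraries 1, 2 and 3. These likenesses rest on 6 libraries that differ mainly by group.

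**Figure D1:**
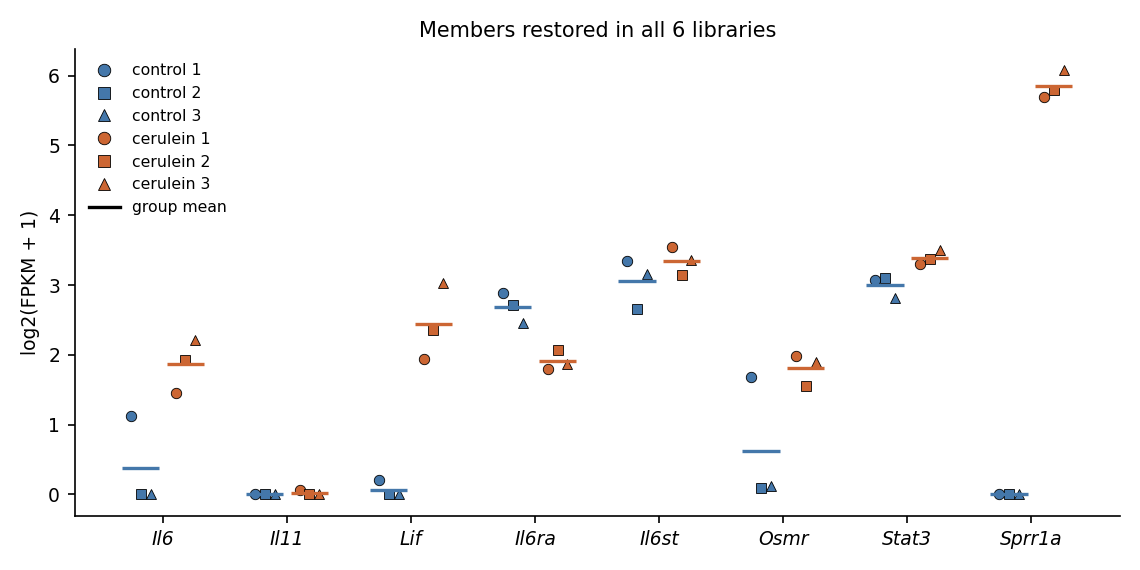
Level of the 8 members restored in all libraries, on log2(FPKM + 1), with 3 control (blue) and 3 cerulein (orange) libraries as points and the group mean as a line. Sprr1a and Lif lie near 0 in the controls and well above in cerulein, Il6ra lies lower in cerulein, and Osmr in control 1 lies among the cerulein libraries.

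Among the ligands, Lif and Il6 were higher after cerulein, and Il11 was hardly seen. Lif (chr11:4257557-4272514, plus strand), a cytokine known for holding embryonic stem cells undifferentiated, stood at 2.83, 4.11 and 7.17 FPKM in cerulein libraries 1, 2 and 3, from 135, 239 and 506 fragments. In control 1 it stood at 0.157 FPKM from 2 fragments, and in controls 2 and 3 it was listed at 0. All 3 cerulein libraries were above all controls, and cerulein 3 was the highest. Lif differed by 2.37 on the log2(FPKM + 1) scale, and pooled fragments gave a ratio of 111 with a 95% counting interval of 30.5 to 915. The exact interval covers counting error only.

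Il6 (chr5:30013114-30019981, plus strand), the cytokine that names the family, stood at 1.75, 2.80 and 3.65 FPKM in cerulein libraries 1, 2 and 3, from 38, 59 and 108 fragments. In control 1 it stood at 1.19 FPKM, from only 3 fragments, and in controls 2 and 3 it was listed at 0. The groups did not overlap, though control 1 and cerulein 1 lay close together. The difference was 1.49 on the log2 scale, and the ratio of mean FPKM was 6.91. Pooled fragments, which weigh the libraries by depth and transcript length, gave a ratio of 14.6 with a 95% counting interval of 4.94 to 71.5. The 3 fragments of control 1 were mostly assigned to the short transcript Il6-202 of 651 bases (86.4% of the gene's FPKM), which had almost no FPKM in the cerulein libraries. There Il6-203 carried 31.6% to 65.2% of the gene and Il6-201 13.7% to 63.8%. Il11 (chr7:4772373-4782859, minus strand), known for fibrosis in mouse organs, had 1 fragment in cerulein 1 (0.0445 FPKM) and none in the other libraries, where 3 fragments would stand for 0.0908 to 0.479 FPKM.

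The other cytokines listed with this family were low. None of the 8 in the list was tested, since all 8 were below the filter. Oncostatin M (Osm), the ligand of Osmr, stood at 0.135, 0 and 0 FPKM in controls 1, 2 and 3 and at 0.226, 1.74 and 2.68 FPKM in cerulein libraries 1, 2 and 3. Cerulein 2 and 3 were high, and cerulein 1 lay near control 1. Cardiotrophin 1 (Ctf1), a heart muscle growth cytokine, reached 9.88 FPKM in control 2 and lay between 0.271 and 1.01 FPKM in the other 5 libraries, and it overlaps Ctf2.

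**Figure D2:**
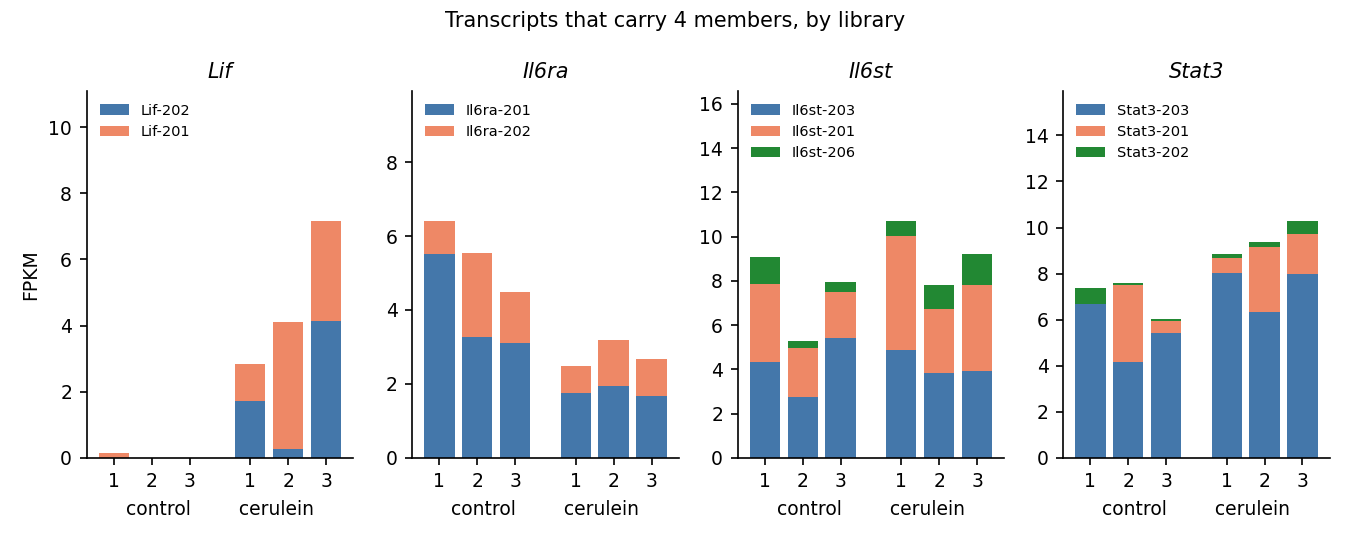
FPKM of each annotated transcript, stacked, for Lif, Il6ra, Il6st and Stat3 in the 3 control and 3 cerulein libraries, leaving out transcripts under 0.1 FPKM in every library. The share of Lif-202 in cerulein libraries runs from 6.68% to 60.5%, while Il6ra-201 is the larger transcript of Il6ra in every library.

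For Lif, the transcripts that carried it differed between cerulein libraries. Lif-202, which codes for 203 residues, took 60.5%, 6.68% and 57.8% of the gene's FPKM in cerulein libraries 1, 2 and 3, and Lif-201, which codes for 158 residues, took the rest. Cerulein 2 thus had almost only the shorter form assigned, and cerulein 1 and 3 had both. The assignment of fragments to transcripts that share most of their length is itself uncertain.

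The receptor chains did not move together. Il6ra (chr3:89864059-89913196, minus strand), the IL-6 binding chain, stood at 6.41, 5.54 and 4.50 FPKM in controls 1, 2 and 3 (88, 120 and 96 fragments). It stood at 2.48, 3.20 and 2.67 FPKM in cerulein libraries 1, 2 and 3 (149, 269 and 258 fragments). All cerulein libraries lay below all controls, with means of 2.78 ± 0.37 against 5.48 ± 0.96 FPKM (SD, n = 3) and a log2 difference of -0.77. Il6ra overlaps Gm42809 in the annotation, and the labels do not say whether counting used the strand. Both of its transcripts were lower in cerulein on average: Il6ra-201, which codes for 460 residues, made up 71.5% ± 13.7 of the gene in control and 64.8% ± 5.11 in cerulein libraries (SD, n = 3).

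Il6st (chr13:112464070-112510086, plus strand), which encodes gp130, stood at 9.10, 5.29 and 7.96 FPKM in controls 1, 2 and 3. In cerulein libraries 1, 2 and 3 it stood at 10.7, 7.82 and 9.23 FPKM, so the groups overlapped. Its log2 difference of 0.30 was about the size of the spread within groups (0.29 log2 units, SD), and it was 1.04 with libraries scaled to their sum outside digestive enzymes. Most of it came from Il6st-203 and Il6st-201, which both code for the whole chain of 917 residues. Il6st-206, which codes for 164 residues, made up 8.39% ± 4.00 of the gene in control and 12.0% ± 5.0 in cerulein libraries (SD, n = 3).

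Osmr (chr15:6813577-6874969, minus strand), the oncostatin M receptor chain, stood at 2.96, 1.93 and 2.72 FPKM in cerulein libraries 1, 2 and 3, from 200, 165 and 273 fragments. It stood at 2.20 FPKM (41 fragments) in control 1 and at 0.0640 FPKM (1 fragment) and 0.0845 FPKM (2 fragments) in controls 2 and 3. The groups overlapped through control 1 alone. The log2 difference was 1.18 over all libraries and 1.71 without control 1. Lifr (chr15:7090614-7197489, plus strand), the Lif receptor chain, had lost its marks in all libraries and did not come out as whole fragments. Its level could only be bounded, to 9.18 to 1960 FPKM over the controls and 9.26 to 1115 FPKM over the cerulein libraries, and no direction can be given.

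Ratios between members of 1 library do not depend on how that library was scaled. Il6ra per Il6st was 0.704, 1.05 and 0.565 in controls 1, 2 and 3 and 0.232, 0.409 and 0.289 in cerulein libraries 1, 2 and 3. The groups did not overlap, with means of 0.772 ± 0.248 in control and 0.310 ± 0.091 in cerulein (SD, n = 3). Osmr per Il6ra was 0.343, 0.0116 and 0.0188 in controls 1, 2 and 3 and 1.19, 0.605 and 1.02 in cerulein libraries 1, 2 and 3. The groups did not overlap, and control 1 was again the highest control. Stat3 per Il6st overlapped between groups, at 1.00 ± 0.38 in control and 1.05 ± 0.20 in cerulein (SD, n = 3).

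**Figure D3:**
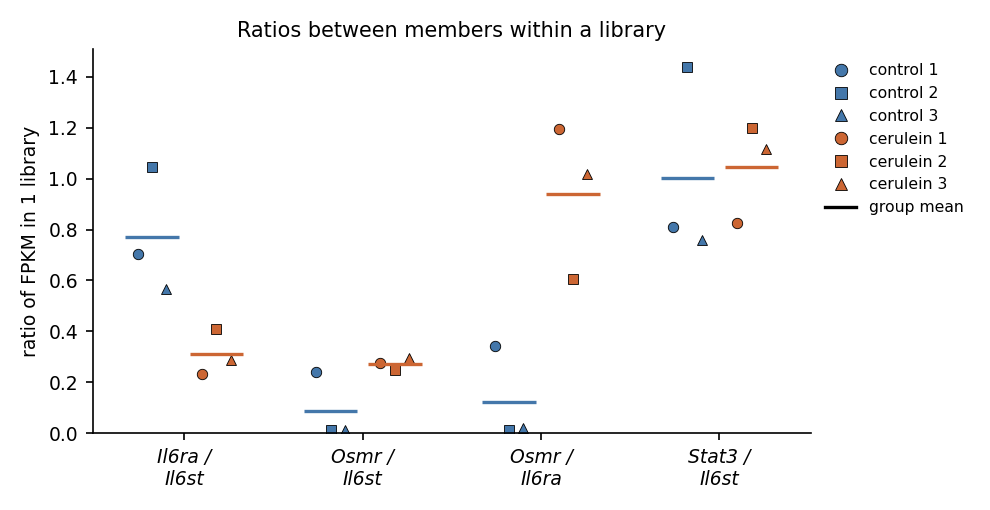
Ratio of the FPKM of 2 members within each library, for 3 control (blue) and 3 cerulein (orange) libraries, with the group mean as a line. Il6ra per Il6st lies at 0.565 or above in the controls and at 0.409 or below in cerulein, and Osmr per Il6ra runs the other way.

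Of the receptors for other ligands, only Il11ra1 was tested. Il11ra1, the IL-11 alpha receptor, stood at 5.33, 2.33 and 1.70 FPKM in controls 1, 2 and 3 and at 0.545, 0.993 and 0.779 FPKM in cerulein libraries 1, 2 and 3. The groups did not overlap, but the gene did not pass (log2 difference -1.12 ± 0.36 SE, adjusted p = 0.069 by limma), and it overlaps Galt and other genes. Because Il11ra1 passed the filter only through the control libraries, where it was high, its p-value and the lack of overlap are not support. The ciliary neurotrophic factor receptor Cntfr, the IL-27 receptor Il27ra and the IL-31 receptor Il31ra were below the filter.

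Stat3 itself lay slightly higher after cerulein. Stat3 (chr11:100885098-100939540, minus strand) stood at 7.37, 7.61 and 6.05 FPKM in controls 1, 2 and 3 (113 to 116 fragments each). It stood at 8.84, 9.37 and 10.3 FPKM in cerulein libraries 1, 2 and 3 (477, 585 and 805 fragments). All cerulein libraries lay above all controls, as they did for 17.4% of all tested genes. The ratio of means was 1.36 and the log2 difference 0.39, or 1.14 with libraries scaled to their sum outside digestive enzymes. Stat3-203, which codes for 770 residues, made up 78.5% ± 20.7 of the gene in control and 78.7% ± 11.5 in cerulein libraries (SD, n = 3). The gene overlaps its neighbour Stat5a in the annotation. These are levels of RNA and say nothing of phosphorylated STAT3.

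Socs3 (chr11:117966079-117970047, minus strand), the feedback inhibitor, stood at 5.97, 9.41 and 10.5 FPKM in cerulein libraries 1, 2 and 3, from 180, 356 and 467 fragments. In control 1 it stood at 24.9 FPKM (209 fragments), above every cerulein library. In control 2 its mark could stand at 7.37 or 73.7 FPKM, and in control 3 at 3.41, 34.1 or 341 FPKM. The mark could not be placed at a posterior of 0.95 in these 2 libraries, so that no group difference of Socs3 can be given.

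Of the 10 members, 7 passed the filter, Sprr1a and Lif only through the 3 cerulein libraries, where they were high. Of the 8 restored members, 5 (Il6, Lif, Il6ra, Stat3 and Sprr1a) did not overlap between groups, against 31.6% of all tested genes. All of these but Il6ra were higher in cerulein, against 17.4% of all tested genes. The members were chosen on this comparison, so nothing is read from these counts. Scaling each library to its sum outside the digestive enzymes moved the median of all genes by 0.57, to 0.66. Relative to the median, Il6ra was at -0.86 on the deposited scale and at -0.77 under that scaling, Stat3 at 0.30 and 0.48, and Il6st at 0.21 and 0.38. Without that subtraction the Il6ra difference was only -0.11 under that scaling. With a pseudocount of 0.1 in place of 1, the log2 differences of the low members were larger, at 2.66 for Osmr, 3.54 for Il6, 5.03 for Lif and 9.15 for Sprr1a.

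Control 1, the control with the highest Osmr, also had the highest sums of fibroblast, endothelial and macrophage markers among the controls. The summed FPKM of 5 restored fibroblast markers (Col1a1, Col1a2, Pdgfrb, Pdgfra and Postn) was 92.8 in control 1, 2.08 in control 2 and 0.879 in control 3, and 105 to 177 in cerulein libraries. The 6 endothelial markers summed to 18.1 in control 1, 0.129 in control 2 and 0 in control 3, and to 3.52 to 4.65 in cerulein libraries. Control 1 thus stood apart from the other controls, as it did for Osmr, while its 3 fragments of Il6 and 2 of Lif were at or under the floor of 3 fragments. The 5 restored macrophage markers summed to 16.3, 3.45 and 1.07 FPKM in controls 1, 2 and 3 and to 19.4, 48.6 and 34.9 FPKM in cerulein libraries 1, 2 and 3. The 4 restored neutrophil markers summed to 0.0952 FPKM or less in control and to 0.238, 2.68 and 3.35 FPKM in cerulein libraries, with Ly6g and Mpo at 0 throughout. The 6 lymphocyte markers summed to 0.514 FPKM or less in control and to 1.80 to 4.76 FPKM in cerulein libraries.

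Of the tested markers, 3 of 5 macrophage and 3 of 5 fibroblast markers were higher in cerulein by limma, against 6.73% of all tested genes. The fibroblast marker Postn and the ductal marker Krt7 passed the filter only through the cerulein libraries. The fibroblast markers that did not pass, Pdgfra and Pdgfrb, were highest in control 1, at 11.9 and 7.29 FPKM, and lay at 0.608 to 3.86 FPKM in cerulein libraries. No islet marker could be restored in all libraries, and of the 5 tested ductal markers 3 were higher and 1 lower, against 5.44% of all tested genes lower. The part of these cell types in the levels of Il6, Lif, Osmr and Sprr1a was not tested.

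**Figure D4:**
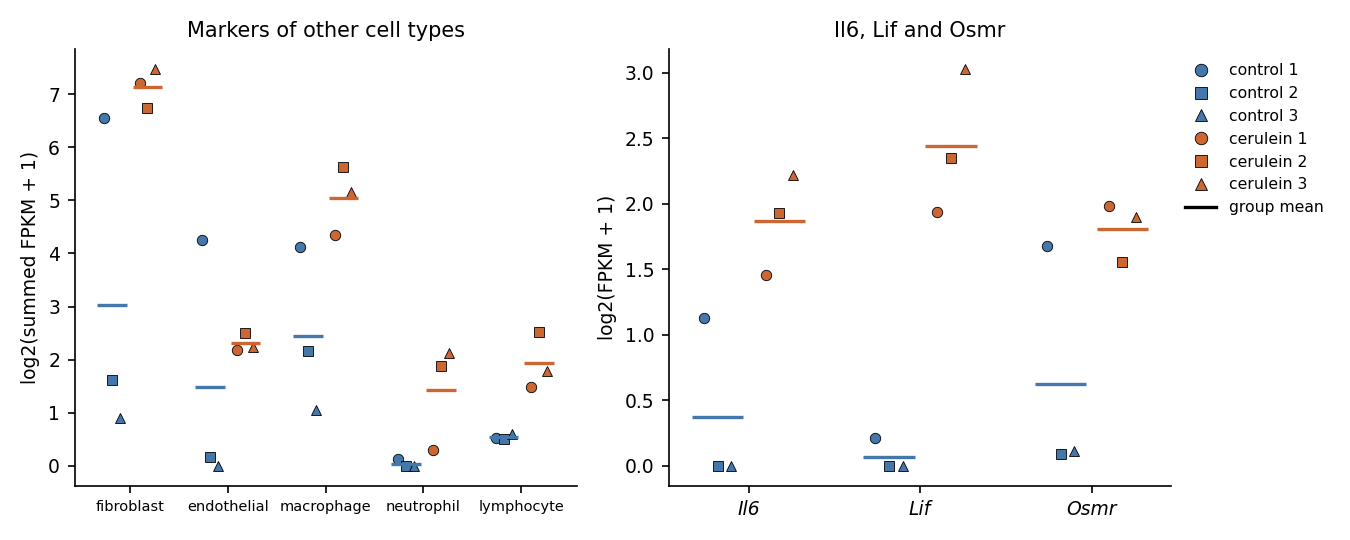
Left, summed FPKM of the restored markers of 5 other cell types, and right, Il6, Lif and Osmr, both on a log2(FPKM + 1) scale, with 3 control (blue) and 3 cerulein (orange) libraries as points and the group mean as a line. Control 1 lies above controls 2 and 3 for fibroblast, endothelial and macrophage markers and for Osmr; its Il6 and Lif points rest on 3 and 2 fragments.

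Other genes of the lists that passed were mostly higher after cerulein. The 8 lists hold pathway genes and also cornified envelope genes and the neuronal partners of Sprr1a. Over these lists, 98 of 101 genes were in the table with 1 entry and 27 could be tested. Of those, 8 passed as higher and 1 as lower in cerulein. The background is 6.73% higher and 5.44% lower among all tested genes. The median log2 difference of the 27 was 0.94, beside 0.09 for all tested genes. Earlier results of these data were known when the lists were chosen, so nothing is read from these counts or this median. Of the rest, 42 were below the filter and 29 could not be restored.

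Among the kinases, adaptors and other STATs, 2 of 7 tested genes rose and none fell. The share over all tested genes was 6.73% higher and 5.44% lower. Jak2, a kinase bound to gp130, rose from 1.05 ± 0.49 to 4.47 ± 2.10 FPKM (SD, n = 3), by 1.36 ± 0.37 (SE) on the log2 scale (adjusted p = 0.038 by limma). Jak3, a kinase of lymphocyte cytokine receptors, rose from 0.326 ± 0.359 to 2.11 ± 0.09 FPKM (SD, n = 3), with an adjusted p of 0.0233 by limma, and overlaps Insl3. Because Jak3 passed the filter only through the cerulein libraries, where it was high, its p-value and its place in the count are not support. Tyk2, Stat2, Stat5a, Stat5b and the phosphatase adaptor Ptpn11 did not pass, with log2 differences of 0.16 to 1.07. Jak1, the main kinase of gp130, stood at 9.82 to 11.2 FPKM in the controls and at 12.4 and 13.5 FPKM in cerulein 1 and 2, and could not be restored in cerulein 3.

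Among the inhibitors and the proteins that shed receptors from the cell surface, few passed. The background over all tested genes was again 6.73% higher and 5.44% lower. Of 5 tested inhibitors, 1 rose: Ptpn2, a phosphatase that acts on Janus kinases and STATs, from 2.60 ± 1.21 to 7.14 ± 1.89 FPKM (SD, n = 3; adjusted p = 0.0439 by limma). Socs7 had a log2 difference of -0.98 and Socs6 of 0.66, and neither passed. Of 3 tested shedding genes, Rhbdf2, the inactive rhomboid that brings the protease ADAM17 to the surface, rose from 2.44 ± 1.76 to 7.34 ± 0.49 FPKM (SD, n = 3; adjusted p = 0.0354 by limma). Adam17 itself, which sheds the IL-6 receptor, had a log2 difference of 0.21 ± 0.31 (SE) and did not pass. Adam10 stood at 3.99, 11.9 and 10.1 FPKM in controls 1, 2 and 3. In cerulein libraries 1, 2 and 3 it stood at 17.2, 18.9 and 20.7 FPKM. It did not pass either (log2 difference 1.15 ± 0.38 SE, adjusted p = 0.0758 by limma).

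Among the known STAT3 target genes, 4 of 9 tested rose and 1 fell, while 13 could not be restored and 8 were below the filter. Of all tested genes, 6.73% were higher and 5.44% lower. Reg3g stood at 0.934, 7.09 and 10.4 FPKM in controls 1, 2 and 3 and at 155, 205 and 161 FPKM in cerulein libraries 1, 2 and 3, and rose by 4.95 ± 0.56 (SE) on the log2 scale (adjusted p = 0.000647 by limma). Lcn2 stood at 3.4, 0 and 0 FPKM in the controls and at 31.4, 30.1 and 17.3 FPKM in cerulein libraries, and rose by 4.01 ± 0.54 (SE; adjusted p = 0.00147 by limma). Timp1, an inhibitor of matrix proteases, was listed at 0 in all controls and stood at 6.63, 10.6 and 17.2 FPKM in cerulein libraries 1, 2 and 3 (adjusted p = 0.000255 by limma). Because Timp1 passed the filter only through the cerulein libraries, where it was high, its p-value and its place in the count are not support. For Reg3g, Lcn2 and Timp1, every cerulein library was above every control. Timp1 lies inside Syn1, and Reg3g has close paralogs, so their fragments could have been split.

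Bcl2l1, which protects from cell death, rose from 3.46 ± 3.03 to 9.55 ± 1.05 FPKM (SD, n = 3), by 1.44 on the log2 scale (adjusted p = 0.0496 by limma). Fos, an immediate-early AP-1 subunit, fell from 204 ± 83.7 to 80.5 ± 9.17 FPKM (SD, n = 3; adjusted p = 0.0388 by limma). Cebpb, Birc5, Hif1a and Mcl1 did not pass, with log2 differences of 0.08 to 1.25. Reg3b could not be restored, but wherever its marks stood its lowest cerulein value was at least 1.95-fold above its highest control value. Myc, Junb, Pim1 and Pim3, also known targets, could not be restored in any library.

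The calls of Jak2, Jak3, Ptpn2, Rhbdf2, Bcl2l1 and Fos did not hold when some single libraries were left out. Without control 2 the adjusted p by limma was 0.0573 for Jak2, 0.0686 for Jak3, 0.121 for Ptpn2, 0.107 for Rhbdf2 and 0.155 for Bcl2l1. Without control 3 it was 0.0784 for Jak2, 0.0765 for Rhbdf2, 0.124 for Bcl2l1 and 0.0639 for Fos. Without cerulein 1 it was 0.0775 for Jak3, 0.0601 for Ptpn2, 0.111 for Rhbdf2, 0.144 for Bcl2l1 and 0.127 for Fos. All 6 lost their call without cerulein 2 (0.106 to 0.215) and without cerulein 3 (0.12 to 0.185). Calls over all genes also fell there, from 642 to 169 and 151. Meanwhile the log2 differences stayed at 1.06 to 1.52 or, for Fos, at -1.25 and -1.34, so these losses do not show that 1 library carries a difference. Reg3g and Lcn2 kept an adjusted p under 0.05 when any single library was left out. Timp1 did too, but it passed the filter only through the cerulein libraries, so this is not support. With a pseudocount of 0.1 these 6 also lost their call (0.059 to 0.115), as they did without a filter (0.0545 to 0.185), where Lcn2 was at 0.0567. Centring on the median ended the call of Ptpn2 (0.0586), and a looser spread between replicates those of Ptpn2 (0.0513) and Bcl2l1 (0.0673). The fall of Fos also lost its call when libraries were scaled to their sum outside the digestive enzymes (log2 difference -0.43, adjusted p = 0.352 by limma).

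**Figure D5:**
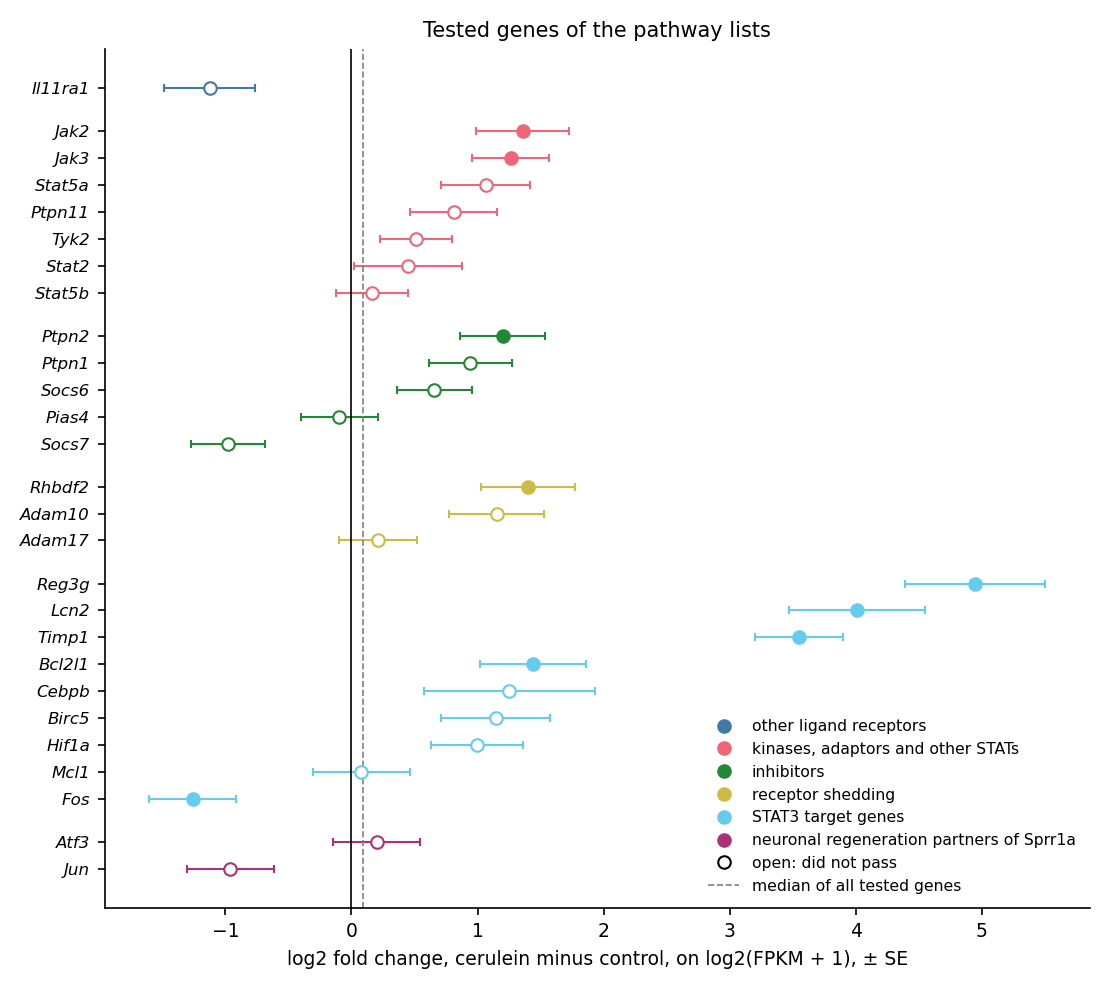
Log2 fold change (cerulein minus control, on log2(FPKM + 1), with its SE) of the 27 tested genes of the pathway lists, coloured by list, with filled points for genes at an adjusted p under 0.05. Reg3g, Lcn2 and Timp1 lie at 3.55 to 4.95, and Fos is the only filled point below 0.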

How the data were processed

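RNA was measured in 6 libraries, 3 control and 3 cerulein, grouped by their titles. Per the submitters' processing notes, the tools were fastp, HISAT2, featureCounts and DESeq2, with build mm10 and no versions. The sources used here do not name the tool behind the FPKM. The table deposited by the authors holds FPKM of 50660 protein-coding transcripts as other than plain numbers: 18.0% to 21.4% of values per library had lost their decimal mark, so the planned test for FPKM was run on restored values. FPKM times length less the mean fragment length, times a library constant, gives whole fragments, and marks were placed at a posterior of 0.95 from the distance to whole fragments and to the other libraries of the group (spread 0.6 log2 units). Of 657 intact values treated as if lost, 428 were placed and 427 of these (99.8%) were right. Restoring leans on replicates lying close together, so p-values may be too small. Transcripts were summed per gene, and 18060 genes were restored in all libraries. Restored fragments came to between 3081610 and 4082170 in control and between 3929560 and 4454750 in cerulein libraries. Genes of at least 1 FPKM in at least 3 libraries were tested with limma 3.58.1 (R 4.3.3) on log2(FPKM + 1), with Benjamini-Hochberg adjustment over all 5275. Fold changes on this scale understate the change of low genes. The script was tested on simulated data. Exact intervals are binomial. Coordinates and residues come from GENCODE on GRCm38, upstream sequences from RefSeq.

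The members, lists and markers were chosen with earlier results of these data known. Named were all members, the passing genes with the largest log2 fold change of each list (up to 4 per direction), and the 5 tested genes nearest to Sprr1a. The same was planned for Socs3, which was not restored. Alternatives were another pseudocount, other filters and scalings, a replicate block, stricter or looser placement, and each library left out. Il11ra2, Cebpd and Sprr2g were not analysed here, and some genes first placed in the lists are not reported here.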

Additional observations from a re-analysis of the deposited data

How the results depend on the processing

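Of the 5275 tested genes, 355 were higher and 287 lower (642 in all), with 8 and 1 in the pathway lists. With a pseudocount of 0.1 these were 188 and 158 (346 in all), with 3 and 0 in the lists, and the log2 differences were 2.66 for Osmr, 3.54 for Il6, 5.03 for Lif and 9.15 for Sprr1a. Without a filter they were 185 and 131 (316 in all), with 2 and 0 in the lists. With a filter of 5 FPKM, 189 were higher. With libraries scaled to their sum outside digestive enzymes, 1721 were higher and 134 lower (1855 in all; 92.8% of calls higher, against 55.3%), with 18 and 0 in the lists. The log2 differences were then 1.14 for Stat3, 1.04 for Il6st, -0.11 for Il6ra, 2.78 for Lif and 6.32 for Sprr1a. Centred on the median, 3 list genes were lower, and with a posterior of 0.99, 2 were. With a spread of 1.5 between replicates, 189 were higher and 167 lower (356 in all), with 3 list genes higher, and Lif could not be restored. Leaving out 1 library gave 89 to 733 higher and 62 to 470 lower genes (151 to 1203 in all), with 3 to 11 and 0 to 2 in the lists. No member's log2 difference changed sign under any setting that gave it a value. The causes were not tested.

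The replicate numbers share only a number: deviations of same-numbered libraries correlated at 0.15, 0.14 and -0.05, and the fit with a replicate block called 373 genes higher and 288 lower. Low counts limit Il6, Il11, Lif and Osmr in the controls, where they rest on 0 to 41 fragments, and lost marks limit Socs3 and Lifr.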

Other observations

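Several acute-phase genes among the STAT3 targets were too low for the test but were listed at 0 in all 3 control libraries. The fibrinogen chain genes Fga and Fgb stood at 0 in cerulein 1 as well, at 0.937 and 0.619 FPKM in cerulein 2 and at 1.49 and 0.702 FPKM in cerulein 3. Fgg stood at 0.0519, 1.00 and 0.769 FPKM in cerulein libraries 1, 2 and 3. The serum amyloid gene Saa1 stood at 0, 0.936 and 0.660 FPKM in the same libraries. Among the cerulein libraries, these 4 genes were highest in cerulein 2 and 3. So were Osm, Il6, Lif, Il6ra, Stat3, Socs3, Sprr1a and the macrophage, neutrophil, lymphocyte and endothelial sums. Osmr, Il6st and the fibroblast sum were lowest in cerulein 2. Saa3, also at 0 in the controls, differed: it stood at 0.972 FPKM in cerulein 3 and, with marks that could not be placed, at 1.12 FPKM or more in cerulein 1 and 6.14 FPKM or more in cerulein 2. The acute-phase gene Lbp was not at 0 in the controls. It stood at 9.9 FPKM or more, 2.89 FPKM or more and 0.0958 FPKM in controls 1, 2 and 3. In cerulein libraries 1, 2 and 3 it stood at 1.99 FPKM, 3.875 FPKM or more and 1.33 FPKM. Sprr1a stood at 50.7, 54.3 and 66.3 FPKM in cerulein libraries 1, 2 and 3.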
